A study of Mus musculus with 6 samples.

Results

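The genes described are 10 members of protease inhibitor families in the conjunctival epithelium of mice with and without Spdef. They are Serpinb1a, Serpinb2, Serpinb3a, Serpinb3b, Serpinb5, Serpinb6a, Serpinb8, Serpinb9 and Serpinb11, which are 9 members of the clade B serpins, and Stfa3, a stefin. They were chosen by their signals on these same arrays, with the difference between genotypes known, so that difference is given below as a description with no test. Every probe set that the files assign to 1 of the genes was kept, which gave 19 probe sets for 10 of the 18096 genes named on the array. The study measured RNA on Affymetrix expression arrays in Spdef +/+ mice (n = 3 arrays) and in Spdef -/- mice (n = 3 arrays). Mice of both genotypes were C57BL/6 and 8 weeks of age. Each array held RNA pooled from 2 animals, a male and a female that gave 1 eye apiece, and taken by laser from the 40% of the conjunctival epithelium closest to the fornix, the fold where lid and eyeball meet. The sources used here do not say how the Spdef allele was deleted or in which cells.

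Serpins inhibit proteases by offering a reactive loop as bait; the protease cuts the loop and is trapped in a covalent complex. Clade B members lack a classical secretion signal and act largely inside cells, where they protect against proteases that escape from granules or lysosomes or that enter from neighbouring cells. Stefins are small cytosolic inhibitors of papain-like cysteine proteases such as the lysosomal cathepsins. Both families are abundant in stratified epithelia and in leukocytes. Spdef encodes a transcription factor of the ETS class that acts in mucous cells, among them the goblet cells of the conjunctiva.

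Signals are in linear dChip units, 1 value per probe set and array. A probe set's signal depends on its own probes, so signals were compared between arrays and not read as levels of 1 gene against another. Where 3 values stand against 3, the Spdef +/+ arrays come first, each group in the order of replicates 1, 2 and 3. The Spdef probe set read 801, 689 and 587 on the Spdef +/+ arrays, all called Present, and 1.00, 3.62 and 2.94 on the Spdef -/- arrays, all called Absent. Whether that probe set lies within the deleted sequence was not given. Between 24589 and 24833 probe sets were called Present on the Spdef +/+ arrays and between 23290 and 23370 on the Spdef -/- arrays. Log2 signals correlated at 0.976 to 0.989 between arrays of 1 genotype and at 0.927 to 0.948 between genotypes. Among markers of the labelled tissue, the stratified epithelial genes Krt4, Krt5, Krt13, Krt14, Krt15, Krt19, Cdh1, Epcam and Trp63 were Present on all 6 arrays.

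The 10 genes differed in both directions and over a wide range. The largest differences were those of Serpinb2, Serpinb3b, Stfa3 and Serpinb3a, which were higher in Spdef -/- epithelium, and Serpinb6a was lower. Serpinb1a, Serpinb5 and Serpinb11 were higher by smaller amounts, Serpinb8 had probe sets that disagreed, and the groups overlapped in both probe sets of Serpinb9. All 3 Spdef -/- arrays lay above all 3 Spdef +/+ arrays in 13 of the 19 probe sets, against 20.0% of the 24533 probe sets tested, and below them in 3, against 30.1%. In the limma fit across all tested probe sets, with a Benjamini-Hochberg adjusted p under 0.05, 11 of the 19 were called higher, where 12.5% of all tested were, and 3 were called lower, where 19.8% were. These shares were fixed in part by how the genes were picked, and nothing is read from them. The median log2 difference of the 19 was 0.47, and that of all probe sets tested was -0.07. All 19 passed the filter of a Present call on at least 3 arrays, and 17 were Present on all 6.

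**Figure D1:**
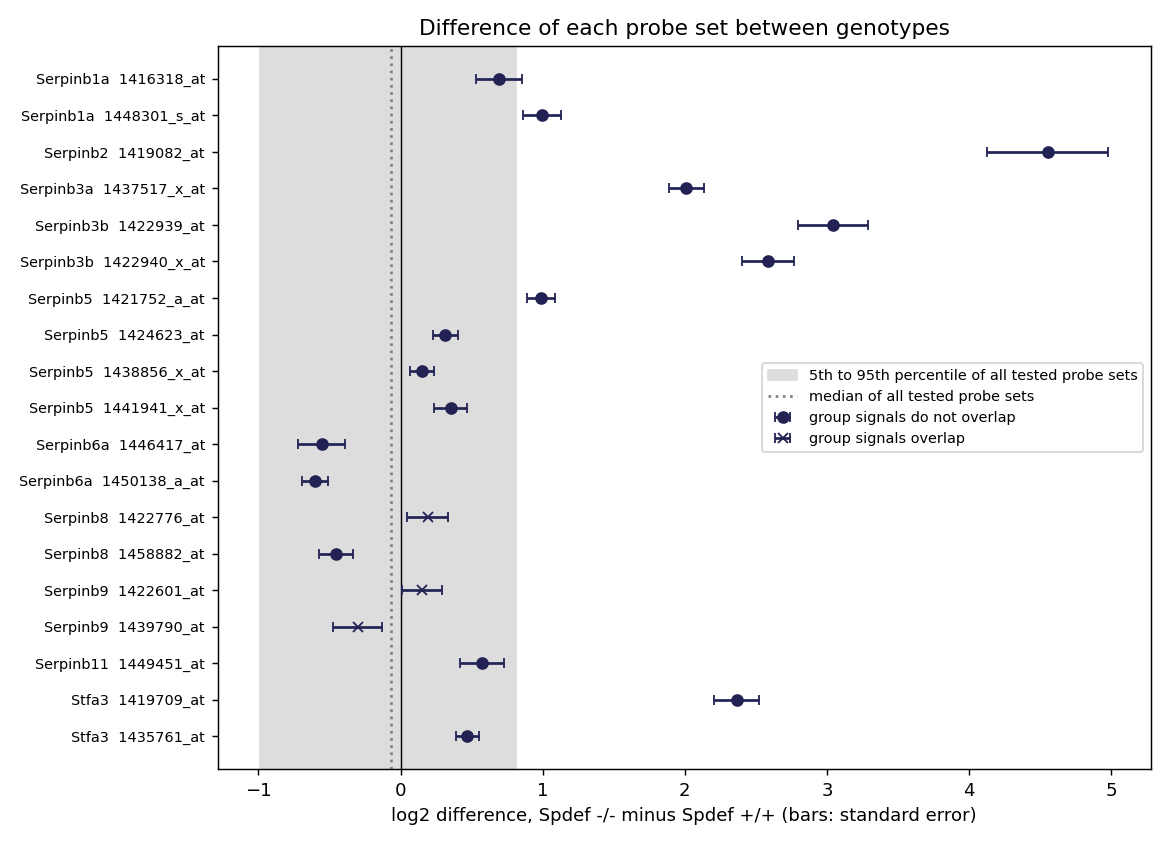
Log2 difference between genotypes (Spdef -/- minus Spdef +/+) for each of the 19 probe sets, with bars for the standard error from the limma fit. Circles mark probe sets whose groups do not overlap and crosses those whose groups do, the dotted line is the median of all probe sets tested (-0.07), and the grey band spans their 5th to 95th percentile, -0.99 to 0.81. Serpinb2, Serpinb3a, Serpinb3b and 1 of 2 Stfa3 probe sets lie well to the right of the band.

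Serpinb2, also called plasminogen activator inhibitor 2, inhibits urokinase and tissue-type plasminogen activator. Its probe set 1419082_at read 15.9, 15.4 and 30.6 on Spdef +/+ arrays and 514, 724 and 262 on Spdef -/- arrays, and it was called Present on all 6. The lowest Spdef -/- array was thus several times above the highest Spdef +/+ array. The group means were 20.7 ± 8.62 and 499.9 ± 231 (SD, n = 3), and the log2 difference was 4.55 ± 0.42 (SE), or 23.5-fold. Spdef -/- replicate 3 was the lowest of its group and Spdef +/+ replicate 3 the highest of its own. Because the Spdef +/+ signals were low, the size depended on how they were treated: adding 32 to every signal before taking logs gave a log2 difference of 3.24. In bulk RNA of this kind, a change in the number of cells of a type and a change in RNA per cell cannot be told apart.

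The sequence just before the Serpinb2 start site is shown because it holds letters for a TATA box and for an AP-1-type element close together. It comes from the RefSeq promoter table of build GRCm38.p6, chr1:107511173-107511422, plus strand, which is the first of 2 start sites listed. Capitals mark TGANTCA, a loose AP-1-type pattern that allows any base at its centre, searched on both strands. They also mark TATAAA, searched on the sense strand. The TGANTCA match begins 94 bases and the TATA match 29 bases before the start site.
Serpinb2: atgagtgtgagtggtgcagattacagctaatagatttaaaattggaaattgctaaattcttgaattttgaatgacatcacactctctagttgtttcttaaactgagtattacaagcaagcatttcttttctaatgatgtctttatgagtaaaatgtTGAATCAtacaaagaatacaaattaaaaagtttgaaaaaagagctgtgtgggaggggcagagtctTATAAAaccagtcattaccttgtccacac
TGANTCA occurred in the 250 bases before the start site of 6.75% of all 32851 promoters in the table, and TATAAA in 7.59%. Entries were found for 9 of the 10 genes, Serpinb1a being the other, and TGANTCA was in those of Serpinb2, Serpinb5, Serpinb8 and Serpinb11. The letters matched were TGAATCA in Serpinb2 and Serpinb5, TGATTCA and TGAATCA in Serpinb11, and TGAGTCA in Serpinb8. A match is only a run of letters, and no binding was measured here.

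Serpinb3a and Serpinb3b are mouse counterparts of the human squamous cell carcinoma antigens, inhibitors of cysteine and chymotrypsin-like serine proteases whose human forms are raised in inflamed and neoplastic squamous epithelium. The Serpinb3a probe set, 1437517_x_at, read 1178, 1078 and 1400.1 in Spdef +/+ and 5111, 5042 and 4518 in Spdef -/- epithelium. The 3 Spdef -/- arrays lay close together, and each was more than 3 times as bright as any Spdef +/+ array. Means were 1219 ± 165 and 4890.3 ± 324 (SD, n = 3), a log2 difference of 2.01 ± 0.12 (SE) or 4.03-fold.

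For Serpinb3b, probe set 1422939_at read 174, 144 and 277 on the Spdef +/+ arrays, where its calls were Absent, Marginal and Present in that order. On the Spdef -/- arrays it read 1372, 1608 and 1752, with 1 Marginal and 2 Present calls. The log2 difference was 3.04 ± 0.24 (SE), or 8.23-fold. The other probe set, 1422940_x_at, read 435, 392 and 616 against 2684, 3168 and 2655, a difference of 2.58 ± 0.18 (SE) or 5.99-fold. Neither probe set overlapped between genotypes, and on both the brightest Spdef +/+ array was replicate 3, as it was for Serpinb3a and Serpinb2. Within each array the log2 ratio of the first probe set to the second moved by 0.46 between genotypes without overlap, so the 2 probe sets did not report the same fold.

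These probe sets cannot be taken as separate measures of Serpinb3a and Serpinb3b. The files give both Serpinb3b probe sets the gene ID of Serpinb3b but describe them under an older name and locus of Serpinb3a. The x in the name of 2 of the 3 marks probes that can match other transcripts. Serpinb3c and Serpinb3d, their closest relatives, had no probe set named for them alone. The authors' deposited table of 153 probe sets, which required a fold with a lower bound above 3, a difference in means above 20 and a p of at most 0.01, lists all 3 probe sets, and no other of the 19. In the authors' deposited table their folds are 7.95 (bounds 5.78 to 12.15) and 5.93 (4.64 to 7.97) for Serpinb3b and 4 (3.43 to 4.75) for Serpinb3a.

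The likeness of the pair is also visible in the DNA before their start sites, shown here so that they can be compared. Both come from the RefSeq promoter table of GRCm38.p6, minus strand, chr1:107052304-107052553 for Serpinb3a and chr1:107161115-107161364 for Serpinb3b, and capitals again mark TATAAA.
Serpinb3a: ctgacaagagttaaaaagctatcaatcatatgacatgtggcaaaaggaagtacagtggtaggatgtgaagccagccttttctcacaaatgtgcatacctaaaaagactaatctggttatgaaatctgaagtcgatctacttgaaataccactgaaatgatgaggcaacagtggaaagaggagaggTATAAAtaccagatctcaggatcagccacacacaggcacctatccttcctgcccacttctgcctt
Serpinb3b: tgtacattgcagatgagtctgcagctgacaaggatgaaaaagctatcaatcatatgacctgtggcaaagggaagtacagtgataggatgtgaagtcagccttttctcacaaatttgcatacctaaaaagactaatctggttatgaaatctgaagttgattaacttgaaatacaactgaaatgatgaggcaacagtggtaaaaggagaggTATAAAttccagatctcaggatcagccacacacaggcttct
In a global alignment 77.0% of the columns were identical between these promoters, and 88.1% were between those of Serpinb3b and Serpinb3c. Serpinb3a and Serpinb2 shared 47.6%, near the 41.8% to 51.4% of the remaining pairs outside the Serpinb3 and stefin groups. Serpinb3d lay within that range too, with 44.5% shared with Serpinb3a, 48.0% with Serpinb3b and 46.6% with Serpinb3c. TATAAA began 65 bases before the start site in Serpinb3a and 41 bases before it in Serpinb3b. Neither held TGANTCA.

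Stfa3 belongs to the stefin A genes, whose products block cysteine cathepsins. Probe set 1419709_at read 239, 208 and 247 in Spdef +/+ and 1301, 951 and 1353 in Spdef -/- epithelium. The genotypes stood far apart, with means of 231 ± 21.0 and 1202 ± 219 (SD, n = 3) and a log2 difference of 2.36 ± 0.16 (SE), or 5.15-fold. The other probe set, 1435761_at, was designed on a transcribed sequence described in the files as highly similar to stefin 3. It read 12829.5, 13158 and 13581 against 18656, 17683 and 18455, a difference of only 0.47 ± 0.08 (SE) or 1.38-fold, again without overlap. Only 0.251% of probe sets were brighter in the Spdef +/+ mean than this one, and the brightest signal of any probe set on an array was between 21627 and 22844. The log2 ratio of the first to the second probe set ran from -5.99 to -5.75 on Spdef +/+ arrays and from -4.22 to -3.77 on Spdef -/- arrays, a shift of 1.89. Whether the bright probe set was near its ceiling, or read other stefins as well, was not tested.

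The stefin A genes lie side by side on chromosome 16, and of the other members only Stfa2l1 and Csta1 were tested. Stfa2l1, probe set 1442339_at, read 12.6, 18.0 and 12.6 on Spdef +/+ arrays, with no Present call, and 151, 62.7 and 86.2 on Spdef -/- arrays, all Present. It rose by 2.72 ± 0.33 (SE) on the log2 scale, or by 1.45 with 32 added to every signal, and Spdef -/- replicate 1 was the highest array. The limma adjusted p was 0.00215, but Stfa2l1 passed the filter only through its Spdef -/- arrays. With no filter the limma adjusted p was 0.0176. The promoters of Stfa3 (chr16:36455393-36455642, minus strand) and Stfa2l1 (chr16:36156561-36156810, plus strand), from the same RefSeq table of GRCm38.p6, are shown because both genes were higher; none of the motifs searched was found in either, so they carry no capitals.
Stfa3: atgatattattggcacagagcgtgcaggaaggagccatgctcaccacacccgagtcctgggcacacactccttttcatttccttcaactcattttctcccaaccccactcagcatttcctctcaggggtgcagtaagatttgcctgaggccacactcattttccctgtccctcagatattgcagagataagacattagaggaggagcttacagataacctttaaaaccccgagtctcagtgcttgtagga
Stfa2l1: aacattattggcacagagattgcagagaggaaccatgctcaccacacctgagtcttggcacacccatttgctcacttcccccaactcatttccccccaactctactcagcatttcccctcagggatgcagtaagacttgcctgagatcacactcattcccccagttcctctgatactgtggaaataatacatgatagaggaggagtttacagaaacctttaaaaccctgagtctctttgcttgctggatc
They were identical in 80.5% of aligned columns. Csta1, another cysteine protease inhibitor, read 4743, 4206 and 5220.2 against 8202, 7150.3 and 5568 at probe set 1435760_at (1.46-fold, limma adjusted p = 0.0436). That call was lost without any one of Spdef +/+ replicates 1 to 3 or Spdef -/- replicates 1 and 2, with adjusted p from 0.0627 to 0.130, and under quantile normalization (0.0606), centring on array medians (0.0695) or no filter (0.132).

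Serpinb1a, Serpinb6a and Serpinb9 are inhibitors of leukocyte granule proteases. Serpinb1a is a counterpart of human SERPINB1, which inhibits neutrophil elastase, cathepsin G and proteinase 3. Its probe set 1416318_at read 1602, 1393 and 1447 in Spdef +/+ and 2960.2, 2379.9 and 1935 in Spdef -/- epithelium, a log2 difference of 0.69 ± 0.16 (SE) or 1.62-fold. Probe set 1448301_s_at read 417, 397 and 429 against 994, 773 and 731, a difference of 0.99 ± 0.13 (SE) or 1.99-fold. On both, every Spdef -/- array was above every Spdef +/+ array, and the Spdef -/- arrays fell in the same order, replicate 1 highest and replicate 3 lowest. The s in the second name marks probes shared by several transcripts, and of the related genes, Serpinb1b did not pass the filter and Serpinb1c had no probe set of its own.

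Serpinb6a is a counterpart of human SERPINB6, an inhibitor of cathepsin G. It was the one gene of the 10 with every probe set lower in Spdef -/- epithelium. Probe set 1450138_a_at read 2769.9, 2504 and 2812 on Spdef +/+ arrays and 1799, 1786 and 1734 on Spdef -/- arrays, and these 3 were nearly alike. The log2 difference was -0.60 ± 0.09 (SE), or 1.52-fold lower. Probe set 1446417_at gave a lower and more scattered signal, with 173, 195 and 146 against 99.0, 113 and 140.1, a difference of -0.55 ± 0.17 (SE) or 1.47-fold lower. The log2 ratio of the 2 probe sets moved by only 0.05, with overlapping groups. The first of 2 Serpinb6a start sites in the RefSeq table, GRCm38.p6 chr13:34002795-34003044, minus strand, is shown because it was the one entry among the 9 genes with CCGGAA, an ETS-type element searched on both strands and marked in capitals.
Serpinb6a: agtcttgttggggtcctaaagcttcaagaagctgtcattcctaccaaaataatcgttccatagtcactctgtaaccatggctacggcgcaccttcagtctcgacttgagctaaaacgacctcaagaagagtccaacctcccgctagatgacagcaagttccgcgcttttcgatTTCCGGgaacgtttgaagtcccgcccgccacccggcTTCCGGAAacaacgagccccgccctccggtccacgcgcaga
It holds 3 matches, beginning 77, 41 and 39 bases before the start site, and the last 2 share bases; 12.0% of all promoters hold at least 1. CCGGAT, the form with the core preferred by SPDEF, occurred in 4.94% of all promoters and in none of those of the 9 genes.

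Serpinb9 inhibits granzyme B and protects cells from their own or a neighbour's cytotoxic granules. Probe set 1422601_at read 351, 277 and 326 against 397, 301 and 362, a log2 difference of 0.15 ± 0.14 (SE). Probe set 1439790_at read 124, 108 and 113 against 101, 71.9 and 112, a difference of -0.30 ± 0.17 (SE). The groups overlapped on both and the signs were opposite, so no direction can be given for this gene.

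**Figure D2:**
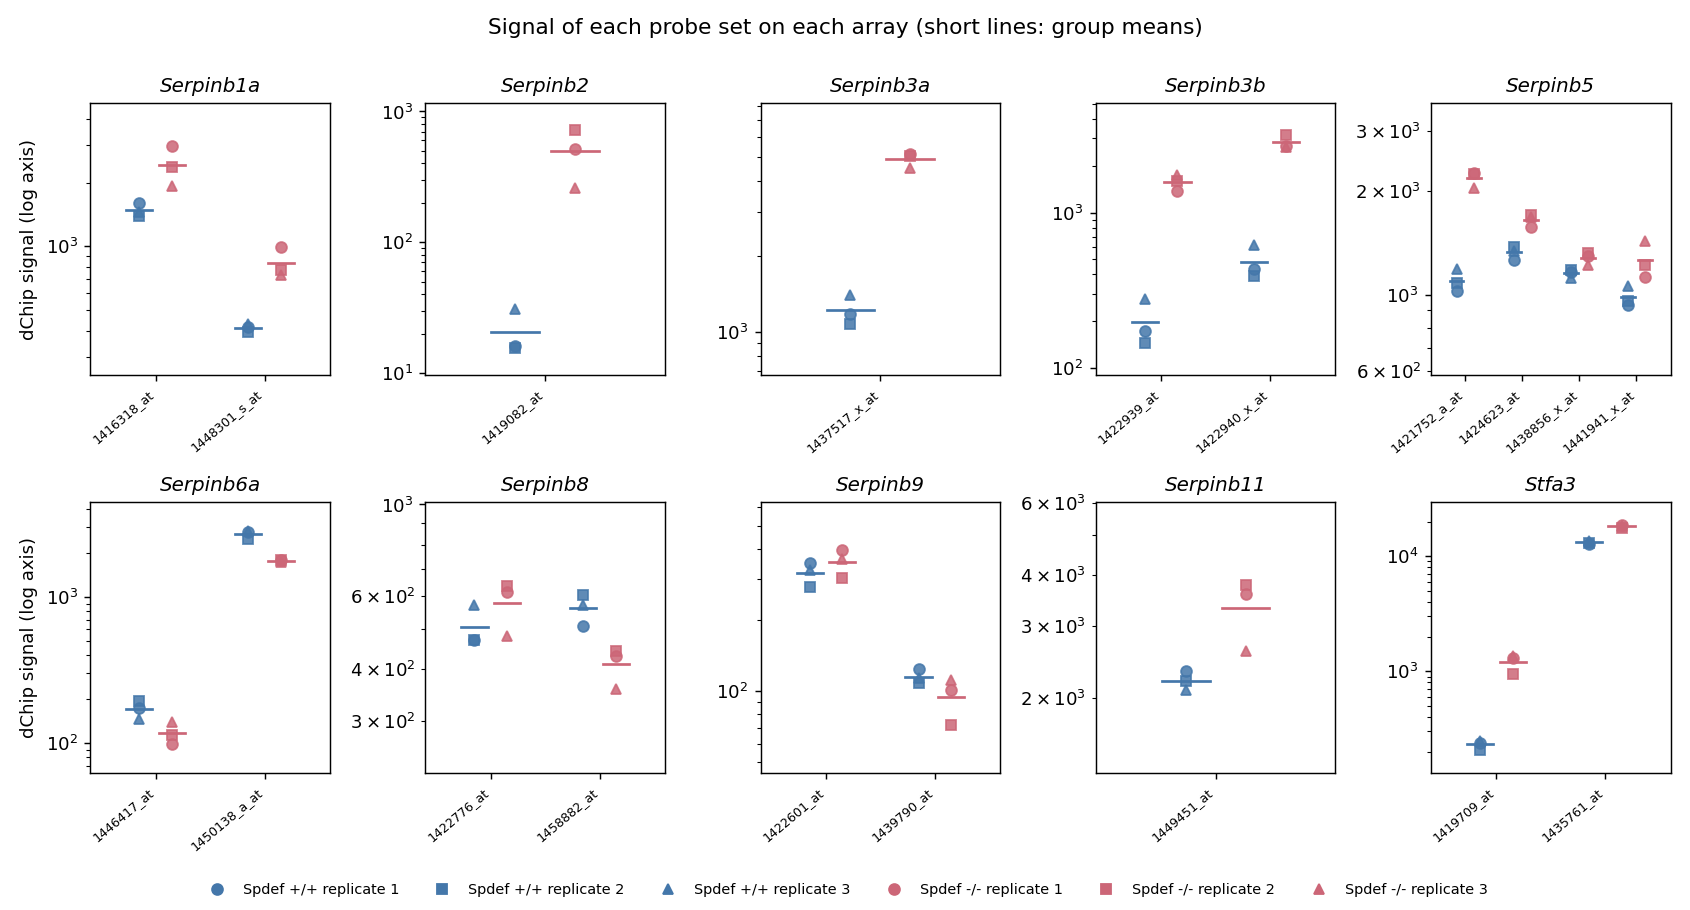
Signals of the 19 probe sets on the 6 arrays, 1 panel per gene, on a log axis in dChip units whose range differs between panels. Blue marks are Spdef +/+ and red marks Spdef -/- arrays, the shape gives the replicate number, and short lines are the group means. The genotypes are far apart for Serpinb2, Serpinb3a, Serpinb3b and the dimmer Stfa3 probe set, and intermixed for Serpinb9.

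Serpinb5, or maspin, is an epithelial serpin that does not inhibit proteases and is known as a tumour suppressor of human mammary epithelium. It had 4 probe sets, all higher in Spdef -/- epithelium and all without overlap, but of unequal size. Probe set 1421752_a_at read 1026, 1081 and 1187 against 2253, 2242 and 2036, a log2 difference of 0.99 ± 0.10 (SE) or 1.98-fold. Probe set 1424623_at read 1261, 1379.5 and 1343 against 1570.2, 1704 and 1677, a difference of 0.31 ± 0.09 (SE). The 2 probe sets whose names carry an x gave 0.15 ± 0.08 (1438856_x_at, 1167, 1180.3 and 1119 against 1297, 1322 and 1222) and 0.35 ± 0.12 (1441941_x_at, 936, 957 and 1059.9 against 1127, 1219 and 1435). The 4 thus ranged from 1.11-fold to 1.98-fold. The first stood apart from each of the others: within arrays, its log2 ratio to them moved by 0.64 to 0.84 between genotypes with no overlap. It is marked by its name as covering more than 1 transcript of the gene, and which transcripts the 4 sets cover was not tested.

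Serpinb8 and Serpinb11 lie on either side of Serpinb2 on chromosome 1. Serpinb8 is a counterpart of human SERPINB8, an inhibitor of the convertase furin. Its probe set 1422776_at read 470.3, 469.9 and 572 against 616, 635 and 482, with overlapping groups and a log2 difference of 0.19 ± 0.14 (SE). Probe set 1458882_at read 509, 604 and 570.4 against 430.2, 443 and 358, without overlap and in the opposite direction, a difference of -0.45 ± 0.12 (SE) or 1.37-fold lower. Within arrays the log2 ratio of the 2 moved by 0.65 with no overlap, so a single direction cannot be given for the gene. Serpinb11, an inhibitor of trypsin-like proteases in the mouse, read 2323, 2198 and 2097 against 3589.9, 3773 and 2599.7 at probe set 1449451_at. It was higher in Spdef -/- epithelium by 0.57 ± 0.16 (SE) on the log2 scale, or 1.49-fold, with Spdef -/- replicate 3 well below the other 2.

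Several of the smaller differences lost their calls when an array was left out, but not all. Serpinb6a 1450138_a_at and Stfa3 1435761_at kept theirs under every alternative run. Of the 14 probe sets called, 5 lost the call when 1 array was left out. Such a fit has fewer arrays in a group, so a lost call need not mean that the difference came from that array. With 1 array left out, the fold of Spdef -/- over Spdef +/+ ran from 1.45 to 1.80 for Serpinb1a 1416318_at. It ran from 1.21 to 1.27 for Serpinb5 1424623_at and from 0.62 to 0.74 for Serpinb6a 1446417_at. For Serpinb8 1458882_at it was 0.70 to 0.78, and for Serpinb11 1.39 to 1.67. Serpinb1a 1416318_at lost it when replicate 2 of either genotype, or replicate 3 of Spdef +/+, was left out, and Serpinb5 1424623_at lost it without any one of the 6. Serpinb6a 1446417_at lost it without replicate 1 or 2 of either genotype. Serpinb8 1458882_at lost it without any array but Spdef -/- replicate 2, and Serpinb11 lost it without any array but Spdef -/- replicate 3. With no filter on Present calls the same 5 lost the call. Quantile normalization ended that of Serpinb6a 1446417_at and Serpinb8 1458882_at, and centring on array medians that of Serpinb8 1458882_at and Serpinb11. The sign of each of the 19 was the same under every alternative run. Spdef -/- replicate 3 was the lowest array of its group in 9 of the 15 probe sets with a positive difference.

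On the chromosome the 9 serpins fall into 2 clusters, 6 genes on chromosome 1 and 3 on chromosome 13. The order on chromosome 1 is Serpinb5, Serpinb12, Serpinb13, Serpinb3a, Serpinb3d, Serpinb3b, Serpinb3c, Serpinb11, Serpinb7, Serpinb2, Serpinb10 and Serpinb8. Differences in this cluster ranged from -0.45 for a Serpinb8 probe set to 4.55 for Serpinb2, and Serpinb11 and Serpinb7, which lie between Serpinb3b and Serpinb2, gave 0.57 and 0.53. Large and small differences thus lay side by side. In the chromosome 13 cluster Serpinb1a and Serpinb6a, at its ends, had opposite signs.

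Of 18 other clade B serpins listed, 10 had a probe set of their own and 3 were tested. The list left out Serpinb9h, which had no probe set of its own. Serpinb6b, which lies between Serpinb1a and Serpinb9, read 331, 408 and 321 in Spdef +/+ and 589, 432 and 622 in Spdef -/- epithelium and rose 1.54-fold (limma adjusted p = 0.0337). That call was lost without Spdef +/+ replicate 1 or 3, or Spdef -/- replicate 1 or 3 (adjusted p from 0.0743 to 0.107), and with no filter (0.110). Its direction was thus opposite to that of Serpinb6a, and no test of that difference was made. Serpinb7, an epithelial serpin, read 21.8, 36.2 and 39.3 against 66.0, 61.6 and 23.1, with Spdef -/- replicate 3 down among the Spdef +/+ arrays (adjusted p = 0.388). Its log2 difference was 0.53, and 1.02 without that array. The larger value follows from leaving out the Spdef -/- array that differed, so no call is read from it. Serpinb6e gave low signals of 6.31, 15.2 and 14.0 against 15.8, 4.39 and 8.15 (adjusted p = 0.578). The other 7 did not pass the filter, and 6 of the 10 had no Present call on any array.

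**Figure D3:**
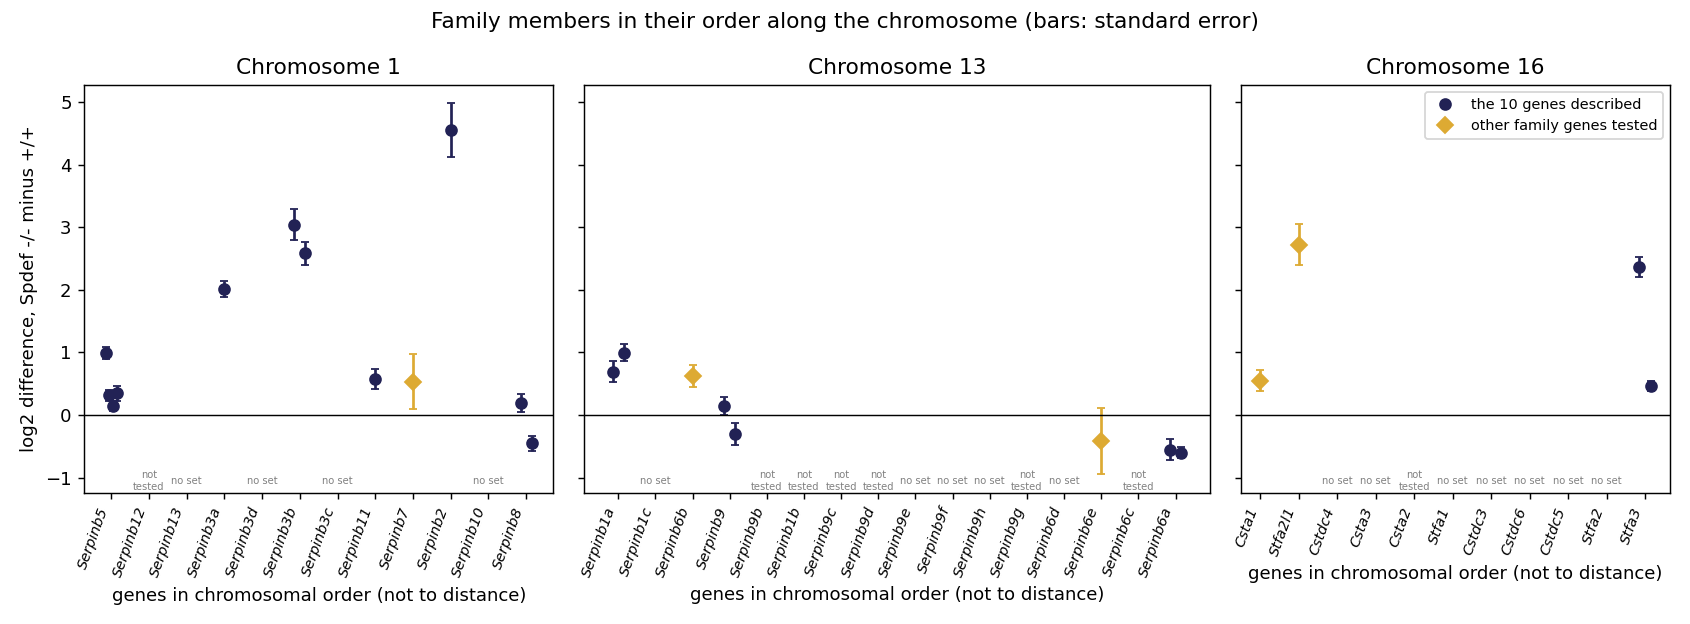
Log2 difference between genotypes (bars, standard error) for every tested probe set of the clade B serpins on chromosomes 1 and 13 and of the stefin A cluster on chromosome 16, with genes in chromosomal order and not to distance. Dark circles are the 10 genes described, yellow diamonds other genes of the families, and grey words mark genes with no probe set of their own or none that was tested. Along chromosome 1, Serpinb11 and Serpinb7 show small differences between the larger ones of Serpinb3b and Serpinb2.

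Related inhibitors and the proteases that such inhibitors bind were read from lists drawn up with earlier results of these arrays known. Each gene was taken at its brightest tested probe set, and counts are read against the 14.1% of 11899 genes called higher and 21.2% called lower in that way. Adjusted p values in what follows are from the same limma fit across all 24533 probe sets. Some genes, among them Spink5, Klk8, Csf3r, Gzmm and Cma1, had Present calls in a single genotype and passed the filter only through it. With no filter the limma adjusted p was 0.0141 for Spink5, 0.00943 for Klk8, 0.00622 for Gzmm and 0.0618 for Cma1.

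The genes of plasminogen activation, which code for the proteases that Serpinb2 inhibits and for the urokinase receptor, were also higher. All 3 tested genes of plasminogen activation were called higher (median log2 difference 1.46), and Plg, the zymogen itself, had no Present call. Plaur, the urokinase receptor, read 38.3, 46.1 and 41.7 against 255, 146 and 103 (3.73-fold, adjusted p = 0.0059). Plat, the tissue-type activator, read 341, 406 and 399.8 against 1703, 851 and 789 (2.74-fold, adjusted p = 0.0114), with Spdef -/- replicate 1 highest for both. The other tested probe set of Plat did not give the same call. Plau, or urokinase, was fainter at 26.0, 49.4 and 47.9 against 94.4, 78.1 and 114 (2.39-fold, adjusted p = 0.0153), and its log2 difference of 1.26 was 0.81 with 32 added to every signal. With no filter on Present calls, Plat (adjusted p = 0.0516) and Plau (0.0625) were no longer called.

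The targets of the granule protease inhibitors gave little signal. Of 9 neutrophil and mast cell serine proteases with a probe set, Cma1, the mast cell chymase, was the only one tested, and 5 had no Present call. Cma1 fell from 42.0, 32.8 and 69.8 to 9.29, 17.8 and 18.5, a log2 difference of -1.66 (adjusted p = 0.0152; 0.0618 with no filter), or -0.74 with 32 added to every signal. Mcpt1 and Mcpt2, mast cell proteases named after their values were seen, lay the other way. Mcpt1 read 9.22, 15.1 and 7.05 against 31.8, 45.8 and 67.8, and Mcpt2 8.30, 4.76 and 5.92 against 20.3, 38.4 and 71.2. Neither overlapped between genotypes, and neither was Present on enough arrays to be tested. Of 11 granzyme and perforin genes, 2 were tested and both fell. Gzma read 219, 219.5 and 214 against 59.8, 59.9 and 94.1 (3.12-fold lower, adjusted p = 0.00181), and Gzmm fell from 98.6, 106 and 94.7 to 30.5, 28.1 and 23.7 (log2 difference -1.87, adjusted p = 0.000346; -1.15 with 32 added). Gzmb, the target of Serpinb9, was called Present on 1 array and not tested.

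Among 10 tested cysteine cathepsins and legumain, the targets of stefins, 1 was called higher, 3 lower and 6 neither (median -0.04). Ctsc, which activates granule serine proteases, read 2792, 2945 and 2722 against 4711, 4028 and 4193 and rose 1.53-fold (adjusted p = 0.00535). Its other tested probe sets did not all give the same call. Ctsf fell 3.25-fold (adjusted p = 0.00154), Ctso 1.47-fold (0.00532) and Ctsk 1.77-fold (0.0383). The Ctsk call was lost without any array but Spdef +/+ replicate 1 (adjusted p from 0.0699 to 0.112), and with quantile normalization (0.0601), array weights (0.148) or no filter (0.118).

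Of 7 other stefins and cystatins tested, 3 were called higher and 1 lower (median 0.53). Besides Stfa2l1 and Csta1, Cstb, or stefin B, rose from 8806, 8918 and 8637 to 12752, 11906 and 13481 (1.45-fold, adjusted p = 0.00612). Fetub, a secreted inhibitor of the cystatin superfamily, fell 1.82-fold (adjusted p = 0.00385). Of 8 other mucosal protease inhibitors tested, 3 were called higher and none lower (median 0.15). Spink5, which inhibits kallikreins of the epidermis, read 14.1, 7.05 and 19.7 with no Present call in Spdef +/+ and 125, 165 and 121 in Spdef -/- epithelium. Its log2 difference was 3.44 ± 0.36 (SE, adjusted p = 0.00151), or 1.89 with 32 added to every signal. A2ml1, a protease inhibitor of keratinocytes related to alpha-2-macroglobulin, rose 5.12-fold (adjusted p = 0.000449), and Wfdc18 2.91-fold (0.0164). The Wfdc18 call was lost without Spdef +/+ replicate 1 (adjusted p = 0.0595) and with no filter (0.0654).

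Serpins of other clades were called in both directions, 2 of 9 higher and 3 lower (median -0.54). Serpina1b, an alpha-1-antitrypsin, read 1953, 1836 and 1704 against 236, 266 and 143, 8.80-fold lower (adjusted p = 0.000543). Its probe set can match the near-identical Serpina1 copies, so the gene is uncertain. Serpina3g, a leukocyte serpin with many close copies, rose 2.76-fold (adjusted p = 0.00133). Serpinf1, a secreted serpin that does not inhibit proteases, and Serpina9 fell 2.08-fold (0.00534) and 1.88-fold (0.00415).

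Of 16 tested epithelial serine proteases and convertases, 7 were called higher and 4 lower (median 0.40). Klk8, a kallikrein of skin and brain, read 78.9, 64.5 and 82.0, with no Present call, against 252, 286 and 225, a log2 difference of 1.76 (adjusted p = 0.000659). The membrane serine proteases Tmprss11a and Tmprss4 rose 2.01-fold (0.000803) and 1.85-fold (0.00126), and Tmprss2 fell 1.82-fold (0.00252), though its 3 tested probe sets did not all give the same call.

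**Figure D4:**
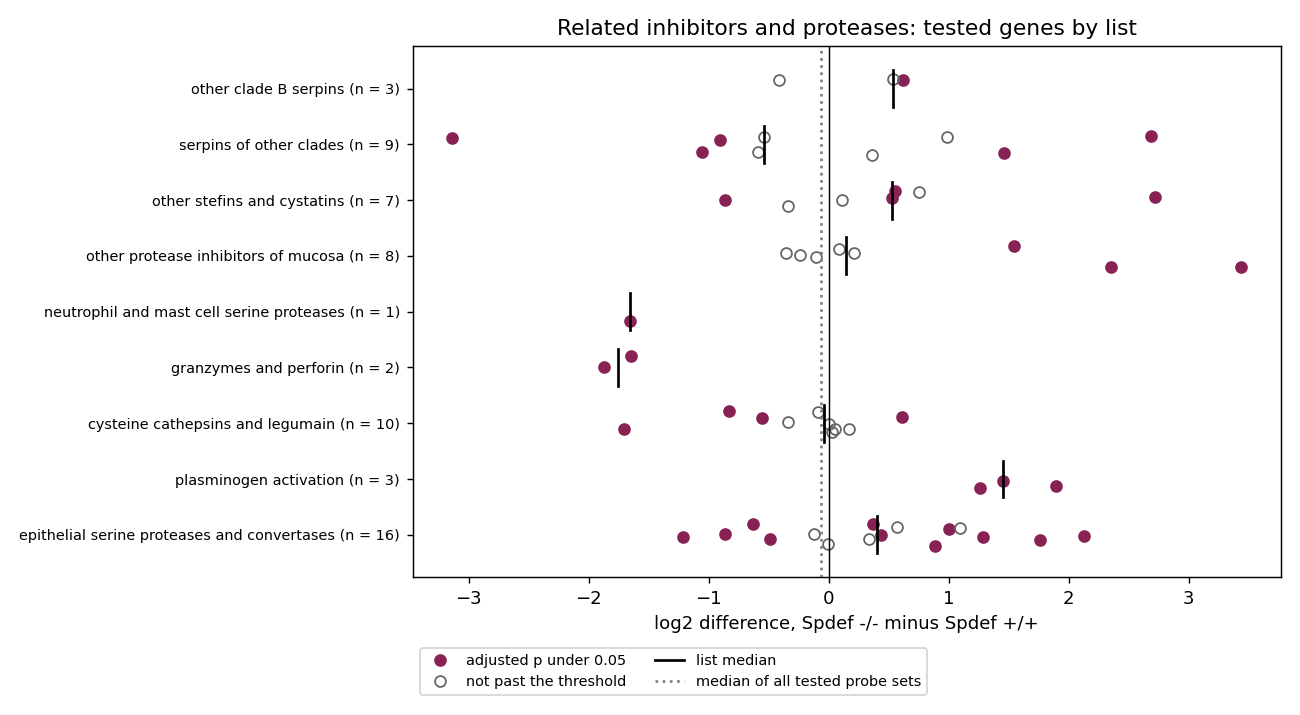
Log2 difference between genotypes of each tested gene in 9 lists of related inhibitors and proteases, at the gene's brightest probe set. Filled circles are genes with a limma adjusted p under 0.05, open circles the rest, black lines the list medians and the dotted line the median of all probe sets tested (-0.07). All 3 plasminogen activation genes lie to the right, both tested granzymes to the left, and most cathepsins near 0.

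Markers of some other cells, but not of all, differed between genotypes on the same arrays. Counts of markers called are again read against the 14.1% of genes called higher and 21.2% called lower. Of 12 neutrophil markers, 10 had a probe set, 4 were tested and 3 were called higher, and the summed signal of the 10 was 448 to 489 on Spdef +/+ and 3790 to 9195 on Spdef -/- arrays. On the latter most of the sum came from S100a8, which read 134, 114 and 93.0 against 3041, 1173 and 1566, and S100a9, which read 92.2, 71.5 and 71.9 against 5319, 2233 and 2816. Without these 2 the sum was 263 to 293 and 383 to 836. Csf3r, the receptor for granulocyte colony-stimulating factor, rose from 6.12, 7.24 and 13.6, with no Present call, to 363, 83.8 and 146 (adjusted p = 0.00267). These 3 genes were highest on Spdef -/- replicate 1. The described genes had 15 probe sets with a positive difference. Of these, 6 were highest on Spdef -/- replicate 1, 6 on replicate 2 and 3 on replicate 3. Both Serpinb1a probe sets were highest on replicate 1. Stfa3 1419709_at was highest on replicate 3 and the other Stfa3 probe set on replicate 1. Mpo, Elane, Camp and Cxcr2 had no Present call on any array. S100a8 and S100a9 are also made by keratinocytes. The part of neutrophils in the differences of Serpinb1a and the stefins was not tested.

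Markers of the skin and of cornifying epidermis summed to 931 to 1074 on Spdef +/+ and 14321 to 19892 on Spdef -/- arrays, with 4 of 6 tested called higher and 1 lower. Without Sprr1a and Sprr2a1 the sum was 725 to 773 and 817 to 900.4. Sprr1a and Sprr2a1, small proline-rich proteins of the cornified envelope, the second with close copies that its probes may also match, rose 60.1-fold and 70.1-fold (adjusted p = 6.29e-05 and 0.000125), while Krt1 fell 1.88-fold (0.00208) and Flg had no Present call. Of the 9 stratified epithelial markers, Krt13, Krt14 and Krt4 were called higher, by 2.08-, 1.57- and 1.38-fold, and the other 6 were not called. Of 8 goblet cell markers 7 were called lower, among them Muc5ac, a secreted mucin, which read 17081, 17013 and 15579 against 23.1, 7.76 and 12.6. Of 7 tested markers of endothelium and stroma 5 were called lower. The 8 with a probe set summed to 26194.5 to 39321 on Spdef +/+ and 16593 to 19405 on Spdef -/- arrays, so stromal genes were bright in the captured tissue. Among them Col1a2 read 8980, 10445 and 13302 against 5445, 6224 and 5219. Of the remaining lists, 1 of 7 tested macrophage and dendritic cell markers was called higher and 1 lower, near the shares of all genes. Of 3 tested T and NK cell markers 1 was called higher. The 2 tested mast cell markers, Cma1 and Kit, were called lower, though the other tested probe set of Kit did not give the same call. None of 3 corneal markers was called (Krt12, adjusted p = 0.113). Over all 9 stratified epithelial markers the folds ran from 0.92 (Epcam) to 2.08 (Krt13), with a median log2 difference of 0.21. The part of these shifts in cell makeup in the differences of the 10 genes was not tested.

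The 3 genes outside the group whose log2 signals over the 6 arrays were most like those of Serpinb2, among 11889 candidates, were Cstf2 (Pearson r = 0.998), Prkx (0.998) and Wdr77 (0.997). Cstf2 read 72.3, 69.1 and 79.2 in Spdef +/+ and 119, 128 and 111 in Spdef -/- epithelium. Prkx read 958, 961 and 1018 against 1406, 1404 and 1276. Wdr77 read 409, 407 and 437 against 634, 635 and 583. As with Serpinb2, replicate 3 was the highest Spdef +/+ and the lowest Spdef -/- array for each, but their folds were small, 1.39 to 1.62. With 6 arrays in 2 genotypes, the points share the difference between genotypes, and the r is a description.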

How the data were processed

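RNA of laser-captured conjunctival epithelium was measured on 6 arrays, 3 per genotype, grouped by the labels' titles. The authors deposited dChip signals, model-based intensity values on a linear scale, and a detection call for each of them. The sources used here do not give their normalization, their background method or how the calls were made. The authors' deposited table of folds (score values) carries an unadjusted p-value per probe set and was filtered as its file headers state. A second deposited signal table differed from the first in 0 values.

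Probe sets took a gene symbol from a mouse gene table by gene ID (36239), by the 1 of several IDs it holds (609), by accession (61) or by the file's gene name (2), and 585 with several genes and 7541 without one were named for none. Of 45101 probe sets, 64 were controls. Before taking log2, a floor of 1 was put on the signals. The 24533 non-control probe sets Present on at least 3 of 6 arrays were fitted in R 4.3.3 by lmFit and eBayes of limma 3.58.1, 2-sided, as Spdef -/- minus Spdef +/+. P values were adjusted by Benjamini-Hochberg over all of them, with a threshold of 0.05. Means carry the SD and differences the SE of the fit. The median residual SD of log2 signals was 0.162. Precision is limited by the number of arrays. The labels call the replicates biological, but the same mice are not said to link numbers across genotypes. Differences of genes with no Present call in 1 group are those of the fit and are no bounds. The procedure was tested on simulated data.

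The genes described, the lists, the markers and the naming rule were chosen with earlier results of these data known. The text names every probe set of the 10 genes, up to 4 called genes of each list with the smallest p, every tested clade B serpin, and the 3 genes most like Serpinb2. Markers, and Plg, Gzmb, Mcpt1 and Mcpt2, are named beyond the naming rule. Alternatives were no filter, a filter on mean log2 signal of at least 6, quantile normalization, centring on array medians, a floor of 16, a pseudocount of 32, eBayes with trend and robust (statmod 1.5.0), array weights, the replicate number as a block, 1 probe set per gene, any tested probe set of a listed gene, and leaving out each array.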

Additional observations from a re-analysis of the deposited data

How the results depend on the processing

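No log2 difference of the 19 probe sets changed sign under any alternative; 253 of their values under an alternative kept their side of the threshold, 35 lost the call and 7 gained it. With no filter, 1768 probe sets were called higher and 2483 lower (3065 and 4866 in the reported fit), 1 of the 19 probe sets lower in place of 3, and 11 listed genes higher in place of 20. Quantile normalization left 1 of the 19 called lower. With 1 probe set per gene, 1878 were called higher and 2850 lower, and of the 10 genes 7 higher and 1 lower. Leaving out 1 array gave 1907 to 3104 probe sets higher and 2868 to 4904 lower, 8 to 10 of the 19 higher and 1 to 2 lower, and 13 to 20 listed genes higher and 11 to 14 lower; the lowest numbers of probe sets came without Spdef +/+ replicate 1. Array weights gave 4034 and 6693 probe sets, and 13 and 4 of the 19. Listed genes called at any tested probe set were 20 higher and 17 lower. Serpinb6e, near background, had a log2 difference of -0.42, which ran from -0.88 to 0.041 when 1 array was left out. Deviations of same-numbered arrays from their group means correlated at 0.02, -0.08 and -0.10, and those of other pairs at -0.12 to 0.15. With so few arrays per group, these values cannot show whether a replicate number links arrays across genotypes. With the replicate block 2211 probe sets were called higher and 3499 lower. Of the 19, 10 were then called higher and 1 lower, and of the listed genes 16 and 13. Signal over background limits genes with Spdef +/+ signals below 50, among them Serpinb2, Stfa2l1, Spink5, Plau and Plaur, whose log2 difference of 1.90 was 1.36 with a pseudocount of 32.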
